A study of Bos taurus with 30 samples.

Results

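Amino acid transporters bring amino acids into cells, move them between compartments and carry several neurotransmitters and osmolytes. The genes described here are the members of the SLC1, SLC3, SLC6, SLC7, SLC36, SLC38 and SLC43 families in the day 15 bovine embryo, chosen by symbol alone. Of the 35092 genes in the count table, 59 had such a symbol, and the 55 with 10 or more counts in at least 3 libraries were taken as members. SLC1A7, SLC6A7, SLC6A16 and SLC6A18 were under that count rule. One of the 55, SLC7A6OS, is not a transporter gene but lies on the opposite strand of SLC7A6 and overlaps it, so 54 members are transporter genes and heavy chains. The libraries were not stranded, and reads of SLC7A6 and SLC7A6OS could not be told apart where these genes overlap.

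The study compared Holstein embryos produced in vitro (IVP) or in vivo (IVV) at day 15, when the bovine conceptus is elongating. IVP embryos came from oocytes of slaughterhouse ovaries, which were matured, fertilized and cultured without serum, and were transferred at day 7 to 2 recipient cows. IVV embryos came from 2 superovulated cows after artificial insemination with semen of the same bull that served for in vitro fertilization. The embryonic disc (ED, which holds the epiblast) and pieces of the extra-embryonic membranes (EEM, mostly trophoblast over hypoblast) were sequenced separately as poly(A) RNA, in 7 IVP and 9 IVV embryos for the ED and in 6 IVP and 8 IVV embryos for the EEM. All embryos had the same sire, the IVV embryos came from only 2 dams, and procedure cannot be told apart from dam, recipient or superovulation. The paper also found the IVP conceptuses to be shorter on average, so embryo length went along with procedure. Both tissues were sequenced in 13 of the 17 embryos, 5 IVP and 8 IVV.

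These families divide the work by substrate and by driving force. The SLC7 light chains exchange amino acids only when bound to a heavy chain, SLC3A2 or SLC3A1, whereas the cationic SLC7 carriers import arginine, lysine and ornithine on their own. SLC38 and SLC6 members draw neutral amino acids in with sodium, SLC1 members carry glutamate or exchange neutral amino acids, and SLC36 members use protons. SLC43A1 and SLC43A2 let large neutral amino acids pass down their gradient. In ruminants, arginine, leucine and glutamine of the uterine fluid act on the elongating conceptus through the MTOR pathway, which is the setting in which these genes are usually studied at this stage.

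Library totals ran from 48713218 to 63037371 counts, and values below are CPM (counts scaled to a common library size with TMM factors) unless called counts. A library whose gene held at most 3 counts was taken as at the floor, and such limits cover counting error only. XIST, the RNA of the inactive X chromosome, was under 1 CPM in all 13 IVP libraries, whereas among IVV embryos it was so in VE3 and VE5 alone, in both tissues, with 45.1 to 150 CPM in the other 7 discs and 97.2 to 424 CPM in the other 6 membranes. The labels give no sex, although the paper fitted embryo sex as a covariate in its methylation model. If XIST is read as a mark of sex, sex and procedure were largely confounded. Whether XIST itself changed with procedure was not tested. Disc libraries also held trophoblast markers: the summed level of 10 markers was 8777 to 57591 CPM in IVP discs, 16136 to 27260 CPM in IVV discs and 22555 to 62200 CPM over the membranes, so RNA of trophoblast genes was present in all disc libraries. Of the 10 markers, 3 were called lower and 0 higher in the ED than in the EEM, with a median log2 fold change of -0.29. Of all genes, 8.16% were lower and 12.8% higher. The epiblast genes POU5F1 and NANOG were at 16.4 to 228 CPM and 2.71 to 44.0 CPM in discs and at 0.419 to 2.43 CPM and 0 to 0.195 CPM in membranes, while SOX2 and UTF1 were at 0 in every library. The disc of IVPF13 did not follow the membrane of the same embryo (correlation of deviations from the group mean -0.187), unlike the discs of the other 12 embryos (0.267 to 0.636), and correlated better with the membrane of another embryo (0.375). Whether a label of IVPF13 was exchanged was not tested, so results between tissues are also given without it. In bulk tissue, fewer cells of a type and less RNA per cell cannot be told apart.

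SLC7A3, a cationic amino acid transporter that imports arginine and lysine, had the smallest p of the members between the tissues. In the IVP discs its level was 2.61 CPM in IVP10, 3.52 in IVPF15, 12.7 in IVPF10, 13.9 in IVPF13, 17.0 in IVP11, 22.0 in IVP14 and 23.4 in IVPF14. In the IVV discs it was 1.21 CPM in VE4, 10.5 in VE3, 14.3 in VE6, 24.8 in VE26, 25.0 in VE24, 42.0 in VE19, 42.5 in VE29, 59.9 in VE28 and 148 in VE5. Membranes held almost none: 5 of 6 IVP membranes and all 8 IVV membranes had 0 counts, and the membrane of IVPF14 had 2 counts. Each disc, with 69 to 9611 counts, was above each membrane. With the membranes set at the floor of 3 counts per library, the mean disc level was at least 231-fold higher in IVP and at least 694-fold higher in IVV embryos. In the fit with embryo as a block, SLC7A3 differed between tissues with an adjusted p of 1.02e-16, in 13 of 13 embryos and in each of the 13 fits that left out 1 embryo. The gene passed the filter on low counts through the discs alone, the only libraries with 10 or more of its counts.

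Between the tissues, 10 of the 43 tested members differed, all with the higher level in the ED, and 12 members had too few counts to be tested. Of all 14898 genes tested, 21% differed in either direction, 12.8% with the higher and 8.16% with the lower level in the ED. The median log2 fold change of the tested members was 0.12, and that of all tested genes -0.08. The 10 members came from 5 of the role groups described here, and no member was called with the lower level in the ED. Without IVPF13, 12 members were called, 11 higher in the ED and SLC7A5 lower (-0.28 ± 0.09, adjusted p = 0.0369), beside 3293 of 14921 genes, 1943 higher and 1350 lower. The log2 fold changes were then 3.35 for SLC38A1, 2.25 for SLC6A19, 2.12 for SLC6A15, 1.94 for SLC6A3, 0.85 for SLC7A8, 0.61 for SLC7A1, 0.48 for SLC6A6 and 0.34 for SLC7A7, and SLC6A8 passed the test as well (0.35 ± 0.12, adjusted p = 0.0411).

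**Figure D1:**
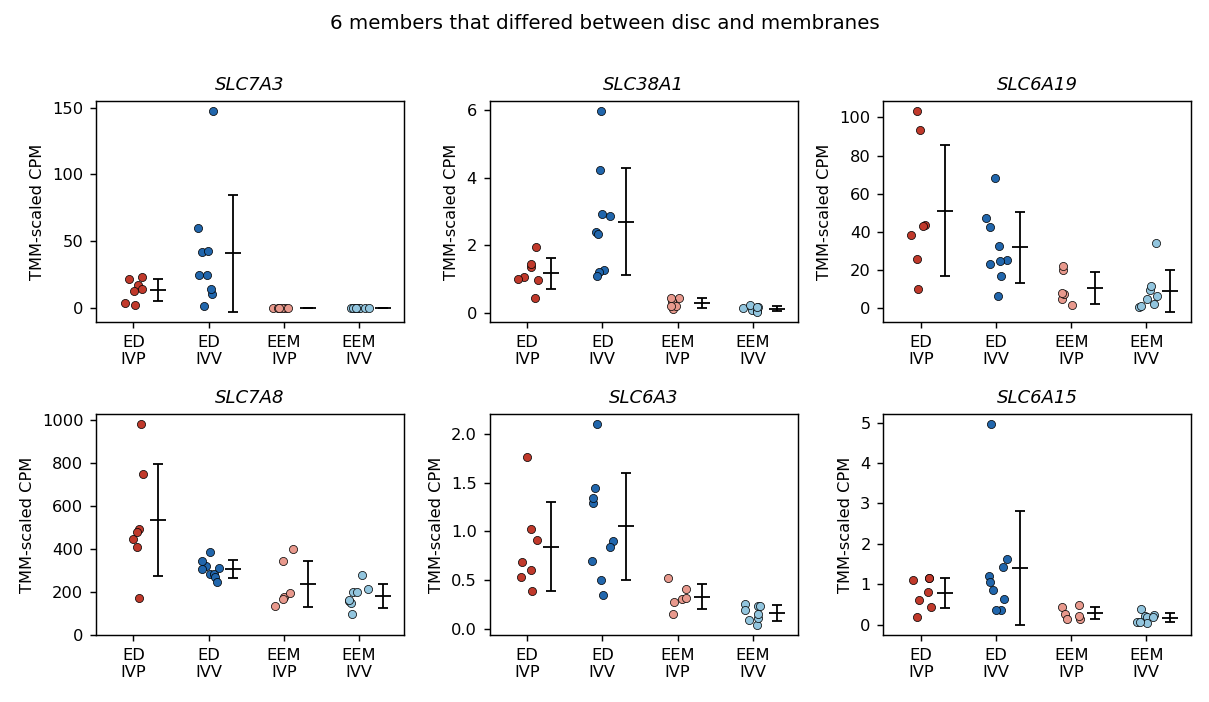
TMM-scaled CPM of SLC7A3, SLC38A1, SLC6A19, SLC7A8, SLC6A3 and SLC6A15, which differed between ED and EEM, by tissue and procedure, with 1 point per library and the mean and SD beside the points (n = 7, 9, 6 and 8). SLC7A3 is at or near 0 in every membrane, and for SLC38A1 every disc but 1 IVP disc lies above every membrane.

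Among the sodium coupled neutral transporters, SLC38A1, which takes up glutamine and other small neutral amino acids, was higher in the disc of each of the 13 embryos. Its lowest, median and highest levels were 0.449, 1.07 and 1.94 CPM in IVP discs, and 1.10, 2.40 and 5.96 CPM in IVV discs. In membranes they were 0.137, 0.290 and 0.461 CPM for IVP and 0.0375, 0.145 and 0.254 CPM for IVV. Among embryos with both tissues, all discs were above all membranes. The log2 fold change was 3.27 ± 0.38 (SE), with an adjusted p of 2.41e-06. SLC38A2, the amino acid responsive relative of SLC38A1 and its neighbour in the genome, had 74.9 to 319 CPM in IVP discs and 46.0 to 310 CPM in IVV discs against 64.1 to 243 CPM over the membranes, with a log2 fold change of 0.04 ± 0.14 (adjusted p = 0.869). The other 8 tested members of this family did not pass the test.

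SLC6A19, which absorbs neutral amino acids in gut and kidney, was also higher in the disc of each of the 13 embryos. IVP discs held 10.04, 43.2 and 103 CPM (lowest, median, highest) and IVV discs 6.07, 25.0 and 68.4 CPM, against 1.64, 7.48 and 22.0 CPM in IVP membranes and 0.726, 5.44 and 34.1 CPM in IVV membranes. The levels of the tissues overlapped, but within an embryo the disc was above the membrane by 1.01 (VE4) to 4.91 (VE19) on the log2 scale. The log2 fold change was 2.22 ± 0.26, with an adjusted p of 2.96e-06. SLC6A15, a carrier of branched-chain amino acids and proline in neurons, was low in both tissues but differed in the same direction, with 0.787 ± 0.381 CPM (SD, n = 7) in IVP discs, 1.40 ± 1.41 CPM (n = 9) in IVV discs, 0.287 ± 0.155 CPM (n = 6) in IVP membranes and 0.173 ± 0.113 CPM (n = 8) in IVV membranes (log2 fold change 2.16 ± 0.40, adjusted p = 0.000521). SLC6A20, the imino acid carrier, and SLC6A14, which takes up neutral and cationic amino acids, did not differ beyond the spread, with log2 fold changes of -0.19 ± 0.12 and -0.23 ± 0.18.

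Among the carriers of neurotransmitters and osmolytes, SLC6A3 and SLC6A6 were higher in the ED. SLC6A3, the dopamine transporter, was at 0.385 to 1.76 CPM in IVP and 0.345 to 2.10 CPM in IVV discs and at 0.157 to 0.523 CPM and 0.0364 to 0.258 CPM in the membranes (log2 fold change 1.81 ± 0.32, adjusted p = 0.000284), and was higher in 12 of 13 discs. SLC6A6, the taurine transporter, was well counted in both tissues and higher in 11 of 13 discs, with 30.4 ± 15.0 CPM in IVP discs, 24.7 ± 6.75 CPM in IVV discs, 24.2 ± 9.54 CPM in IVP membranes and 13.9 ± 4.38 CPM in IVV membranes (log2 fold change 0.47 ± 0.14, adjusted p = 0.0206). That call was lost without VE28 (adjusted p = 0.0546), and the log2 fold change was 0.01 in IVP embryos alone (adjusted p = 0.991) and 0.81 in IVV embryos alone. The creatine transporter SLC6A8 had a log2 fold change of 0.31 ± 0.12 (adjusted p = 0.0683).

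The light chain SLC7A8, which with SLC3A2 exchanges large and small neutral amino acids, was higher in the ED of all 13 embryos. IVP discs held 173, 482 and 984 CPM (lowest, median, highest) and IVV discs 249.8, 308 and 387 CPM, against 136, 188 and 403 CPM in IVP membranes and 97.4, 181 and 282 CPM in IVV membranes. The ranges overlapped, but no embryo had the higher level in its membrane (log2 differences of 0.02 in VE29 to 1.54 in VE24). The log2 fold change was 0.87 ± 0.12, with an adjusted p of 1.82e-05. SLC7A7, the light chain that releases cationic amino acids in exchange for neutral ones, differed less, from 51.2 ± 23.1 and 41.4 ± 5.50 CPM in IVP and IVV discs to 36.9 ± 15.1 and 34.8 ± 8.66 CPM in the membranes, and was higher in 12 of 13 discs (log2 fold change 0.37 ± 0.10, adjusted p = 0.0129). SLC7A1, the cationic carrier found in most cells, was higher in 13 of 13 discs, with 17.2 ± 7.95 and 15.0 ± 6.39 CPM in IVP and IVV discs and 11.5 ± 4.68 and 8.23 ± 2.57 CPM in the membranes (log2 fold change 0.60 ± 0.14, adjusted p = 0.00513).

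The members with the smallest p toward the membranes were SLC7A5, SLC1A4, SLC7A2, SLC38A11, SLC6A20 and SLC7A9, and none passed the test in the fit with all 13 embryos. SLC7A5, the light chain that exchanges leucine and other large neutral amino acids for glutamine, was at 37.6, 56.3 and 90.4 CPM in IVP discs, 21.4, 36.6 and 50.7 CPM in IVV discs, 41.8, 54.4 and 84.1 CPM in IVP membranes and 31.0, 48.7 and 91.0 CPM in IVV membranes. It was lower in the disc in 11 of 13 embryos, by 0.25 ± 0.09 on the log2 scale in the fit (adjusted p = 0.0604), and this value was past the threshold without IVP11, IVP14 or IVPF13 (lowest adjusted p = 0.0352). SLC1A4, an exchanger of alanine, serine and cysteine, had 1.70, 4.44 and 6.73 CPM in IVP discs, 1.45, 3.41 and 6.62 CPM in IVV discs, and 3.65 to 9.71 and 1.90 to 6.29 CPM in the membranes (log2 fold change -0.32 ± 0.14, adjusted p = 0.113). SLC7A2, an inducible arginine carrier, had a log2 fold change of -0.48 ± 0.23 (adjusted p = 0.138, and 0.0417 without VE5). SLC38A11 had -0.39 ± 0.19 (adjusted p = 0.1499, and 0.0461 without VE26), and SLC7A9, the light chain of SLC3A1 in cystine uptake, -0.36 ± 0.25 (adjusted p = 0.322).

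**Figure D2:**
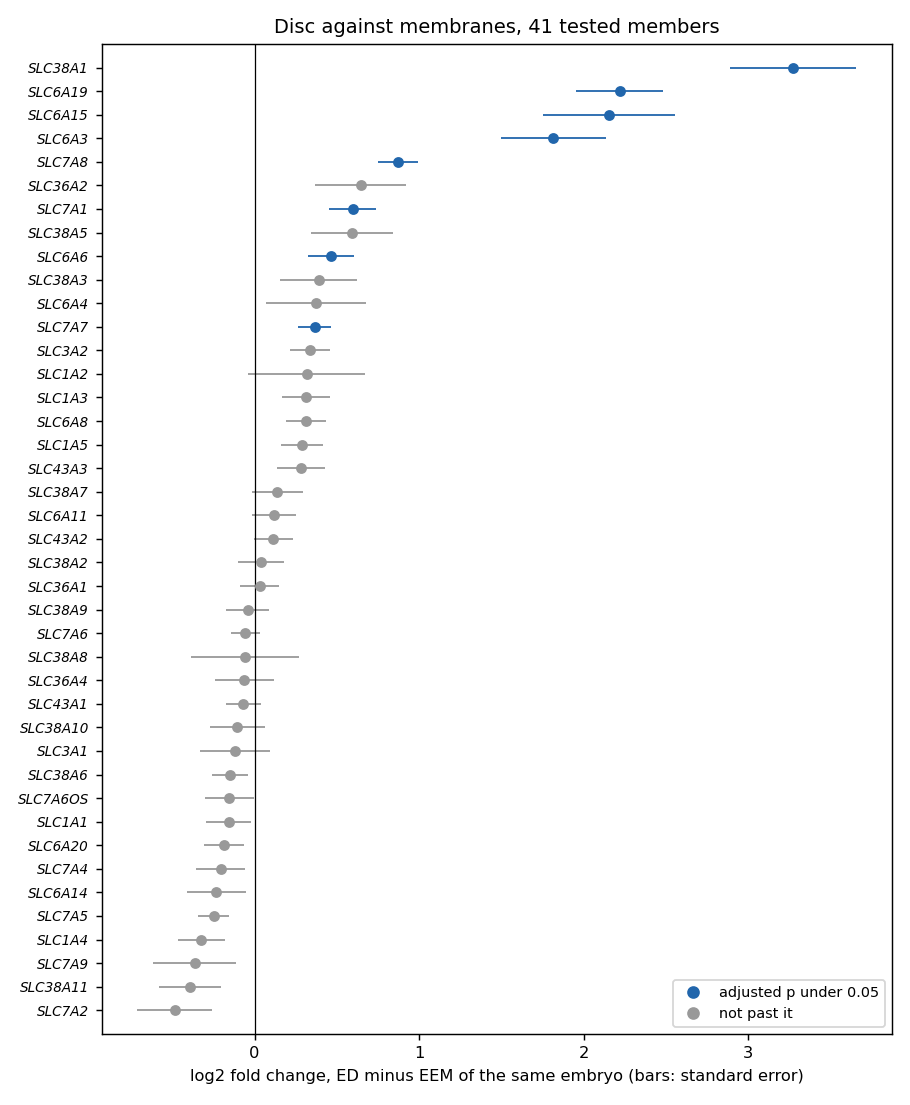
Log2 fold change between ED and EEM, with embryo as a block, for 41 tested members, SLC7A3 not shown; bars are standard errors and blue points have an adjusted p under 0.05. The 8 blue points all lie to the right of 0, and the largest, SLC38A1, is at 3.27.

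Neither heavy chain passed the test between the tissues in the fit reported here. SLC3A2, the partner of SLC7A5, SLC7A6, SLC7A7, SLC7A8, SLC7A10 and SLC7A11, was well counted in every library, with 114, 278 and 449.9 CPM in IVP discs, 176, 245 and 312 CPM in IVV discs, 130.2, 170.4 and 330.1 CPM in IVP membranes and 95.5, 187 and 381 CPM in IVV membranes, and its log2 fold change between tissues was 0.34 ± 0.12 (adjusted p = 0.0518). It was called higher in the ED with DESeq2, with DESeq2 size factors, with halved counts, and without IVP10, VE28 or VE5. SLC3A1, the partner of SLC7A9, was at or below 1.15 CPM in every library (-0.12 ± 0.21, adjusted p = 0.721). SLC7A11, the cystine and glutamate exchanger, held 0 to 17 counts in IVP discs, 3 to 56 in IVV discs and 0 to 8 in the membranes, which was too few for a test between tissues. None of the 5 tested SLC1 members, of the 3 tested SLC36 members or of the 3 SLC43 members passed the test between tissues.

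Several members were under the filter on low counts in the fit between tissues. With no filter, SLC1A6, SLC6A2, SLC6A12 and SLC7A14 were also called higher in the ED. SLC1A6, a glutamate transporter of cerebellar neurons, had 6 to 20 counts in IVP discs, 15 to 93 in IVV discs and 0 in all 14 membranes, so its mean level was at least 4.02-fold higher in IVP and at least 10.04-fold higher in IVV discs than a floor of 3 counts per membrane library. SLC6A2, the norepinephrine transporter, was at 0 or 1 count in IVP discs and at 0 to 164 counts in IVV discs, with 12 counts in the membranes of VE5 and VE26 and at most 1 in the others. SLC7A14, a lysosomal relative of the cationic carriers, held 1 to 28 counts in IVV discs and at most 2 counts in IVV membranes. SLC6A5, a glycine transporter, was at 0 to 17 counts over all libraries and entered no comparison under the filter.

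The difference between tissues was also fitted in each procedure alone, with 5 IVP and 8 IVV embryos. SLC7A3, SLC38A1, SLC6A19 and SLC7A8 passed the test in both. For SLC38A1, SLC6A19 and SLC7A8 the log2 fold changes were 2.02, 2.01 and 1.05 in IVP embryos and 4.20, 2.42 and 0.82 in IVV embryos, while for SLC7A3, with membranes at or near 0, the bounds given above stand in place of a fold. SLC6A3, SLC6A6, SLC6A15, SLC7A1 and SLC38A5 passed it in IVV embryos and not in IVP embryos, and SLC1A6, SLC6A2 and SLC6A13 passed it in IVV embryos and had too few counts to be tested in IVP embryos, but the interaction of tissue and procedure, given below, was not past the threshold for 7 of these 8, and for SLC1A6, at 0 in every membrane, it could not be estimated. In IVV embryos SLC1A6 and SLC6A13 passed the filter on low counts through the discs alone, and SLC6A2 through discs and 2 membranes. For SLC38A5 the log2 fold changes were -0.17 ± 0.27 in IVP and 1.15 ± 0.28 in IVV embryos. SLC7A7 passed the test in neither procedure alone.

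Between IVP and IVV discs, 2 of the 50 tested members differed, SLC7A6 with the higher level in IVP discs and SLC6A13 with the lower. Of all 15733 genes tested, 6.34% differed, 1.4% with the higher and 4.95% with the lower level in IVP discs, and 2 of 50 members are 4%. The order of these shares was not the same in every fit. DESeq2 called 10 of the 50 members and 1519 of the 15733 genes, and edgeR without IVP11 called 7 of 53 members and 1134 of 15984 genes. The median log2 fold change was -0.0053 over the tested members and -0.0078 over all genes. At an unadjusted p under 0.05 were 16 of the 50 members (32%) and 18.4% of all genes. The discs also differed in their markers: the summed level of 9 primitive streak and mesoderm genes was 7.43 to 17.3 CPM in IVP and 33.5 to 164 CPM in IVV discs, with 8 of 8 tested genes lower in IVP, that of 8 epiblast genes 67.7 to 214 CPM and 101 to 450 CPM, with 2 of 5 lower, and that of 7 genes of the maternal uterus 13.7 to 29.7 CPM and 19.0 to 42.8 CPM, with 1 of 6 lower. Their part in the values below was not tested.

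SLC6A13, a carrier of GABA and taurine, was the member with the clearest difference between procedures. IVP discs held 0 counts in IVP10 and IVP11, 3 counts in IVP14, IVPF13, IVPF14 and IVPF15, and 6 counts in IVPF10. IVV discs held 10 counts in VE4, 15 in VE24, 25 in VE29, 26 in VE5, 29 in VE28, 31 in VE19, 35 in VE3, 44 in VE6 and 47 in VE26. The groups did not overlap. The levels were 0.0444 ± 0.0342 CPM (SD, n = 7) and 0.478 ± 0.185 CPM (n = 9), a log2 fold change of -3.44 ± 0.56 (SE) with an adjusted p of 0.000467. The gene passed the filter on low counts through the IVV discs alone, which were the only libraries with 10 or more of its counts, and 6 of the 7 IVP discs were at or under the floor of 3 counts, so the size of the fitted fold rests on few counts. VE3 and VE5, the IVV embryos with low XIST, lay within the range of the other IVV discs, and with XIST as a covariate the log2 fold change was -3.46 (adjusted p = 0.00323). Membranes held 0 to 9 counts and were not tested. Its neighbour in the genome SLC6A12, the betaine carrier, had 0 to 5 counts in IVP discs and 2 to 43 in IVV discs and was under the filter for a test within discs.

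SLC7A6, the light chain that with SLC3A2 exchanges arginine for glutamine and sodium, was at 51.8, 84.2 and 143 CPM (lowest, median, highest) in IVP discs and at 25.1, 53.6 and 77.2 CPM in IVV discs. The groups overlapped, with IVP10, IVP11 and IVPF13 among the IVV values and the other 4 IVP discs above them. The log2 fold change was 0.63 ± 0.18 (adjusted p = 0.0327). The call was lost in 7 of the 16 fits that left out 1 disc, with an adjusted p of up to 0.105 (without VE5), while the log2 fold change stayed between 0.58 and 0.88 over these fits. It was also lost with XIST as a covariate (0.75, adjusted p = 0.193), with 0 or 2 surrogate variables and with the title letter as a term, at log2 fold changes of 0.73, 0.63 and 0.59. The overlapping gene SLC7A6OS was at 14.7 ± 5.40 CPM in IVP and 10.8 ± 0.908 CPM in IVV discs (log2 fold change 0.36 ± 0.22, adjusted p = 0.440). In membranes SLC7A6 had 78.2 ± 30.04 CPM in IVP and 59.8 ± 20.6 CPM in IVV embryos (0.31 ± 0.22, adjusted p = 0.681).

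**Figure D3:**
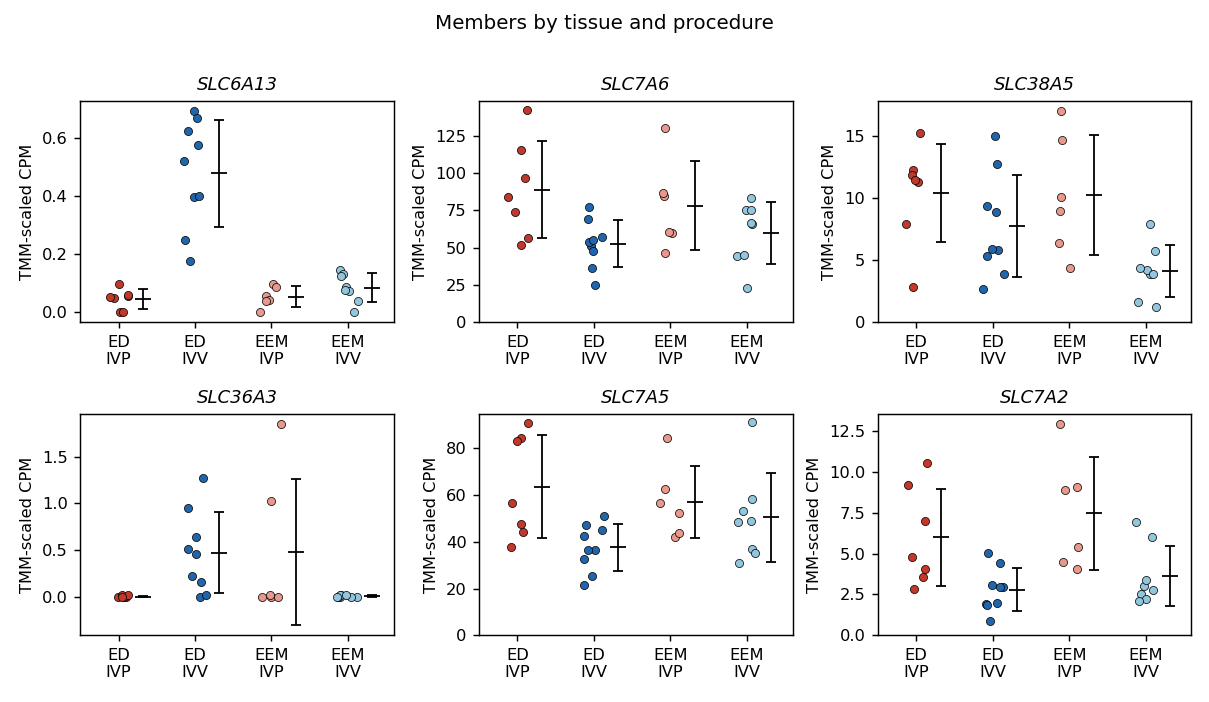
TMM-scaled CPM of SLC6A13, SLC7A6, SLC38A5, SLC36A3, SLC7A5 and SLC7A2 by tissue and procedure, with 1 point per library and the mean and SD beside the points (n = 7, 9, 6 and 8). The IVP discs of SLC6A13 lie between 0 and 0.0962 CPM and the IVV discs between 0.175 and 0.693 CPM, whereas for the other genes the groups overlap.

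Of the other light chains of SLC3A2, SLC7A5, SLC7A7 and SLC7A8 had fitted values on the same side of 0 as SLC7A6 and SLC7A10 and SLC7A11 on the other, and none passed the test. SLC7A5 was at 63.4 ± 21.9 CPM in IVP discs and 37.5 ± 9.92 CPM in IVV discs (log2 fold change 0.62 ± 0.20, adjusted p = 0.0671). SLC7A8 was at 535 ± 260.1 CPM and 307 ± 41.6 CPM (0.75 ± 0.25, adjusted p = 0.0719), and both were past the threshold with DESeq2, at adjusted p of 0.0197 and 0.0314. SLC7A7 had 0.25 ± 0.21 (adjusted p = 0.622), SLC7A11 -0.75 ± 0.65 (adjusted p = 0.629) and the heavy chain SLC3A2 itself 276 ± 113 CPM and 239 ± 44.2 CPM (0.18 ± 0.23, adjusted p = 0.780). For the cystine pair, SLC3A1 had -0.35 ± 0.36 and SLC7A9 0.36 ± 0.36, with adjusted p of 0.701 and 0.685. SLC7A10, the light chain that carries small neutral amino acids such as glycine, was just short of the threshold, with 0 to 10 counts in IVP and 5 to 25 in IVV discs (-1.94 ± 0.59, adjusted p = 0.0502), and passed it with no surrogate variable (adjusted p = 0.0427). Its entry into the test rested on the IVV discs, since IVPF15 was the only IVP disc that reached 10 counts.

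SLC7A3, which marks the disc, was at 13.6 ± 8.18 CPM in IVP and 40.9 ± 44.0 CPM in IVV discs. The groups overlapped, since VE4 with 1.21 CPM was below all IVP discs and VE5 with 148 CPM far above all others. The log2 fold change was -1.61 ± 0.61 (adjusted p = 0.128), and it ranged from -1.84 to -0.69 when 1 disc was left out, with the weakest value without VE5 and a call only without VE4 (adjusted p = 0.0282). SLC7A3 lies on the X chromosome of mammals. With XIST as a covariate the value was -2.87 (adjusted p = 0.0204). The call for SLC7A3 between procedures thus turned on which embryos and covariates entered the fit.

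The level of SLC7A3 followed that of NANOG, a transcription factor of the epiblast, from disc to disc. On the log2(CPM + 0.05) scale Pearson's r was 0.945 in the 7 IVP discs (exact permutation test, two-sided, p = 0.00357, adjusted over 4 relations 0.00714) and Spearman's rho 0.893 (exact permutation p = 0.0123, adjusted 0.0246). In the 9 IVV discs r was 0.971 (exact permutation p = 0.000154, adjusted 0.000617) and rho 0.867 (exact permutation p = 0.00451, adjusted 0.0180). Without the 2 discs farthest from the median NANOG level, r was 0.86 in IVP and 0.85 in IVV discs. Discs low in SLC7A3 were thus those low in NANOG: VE4 had 3.105 CPM of NANOG, IVP10 3.24 and IVPF15 2.71, against 44.0 in VE5. The discs share their dissection, and the share of epiblast in a disc was not measured.

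With POU5F1, the other epiblast factor, the relation was looser. In IVP discs r was 0.411 (exact permutation p = 0.349, adjusted 0.349) and rho 0.393 (exact permutation p = 0.396, adjusted 0.396), and r was -0.17 without IVP10 and IVPF13. In IVV discs r was 0.791 (exact permutation p = 0.00913, adjusted 0.0122) and rho 0.733 (exact permutation p = 0.0311, adjusted 0.0415), but r was 0.37 without VE5 and VE4, so that relation rested on those discs. POU5F1 ran from 16.4 to 39.6 CPM in IVP discs and from 26.9 to 228 CPM in IVV discs. Per CPM of POU5F1, the discs held 0.0944 to 0.798 CPM of SLC7A3 in IVP embryos (median 0.538) and 0.0450 to 0.709 CPM in IVV embryos (median 0.361), so the ranges of this ratio overlapped almost wholly.

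**Figure D4:**
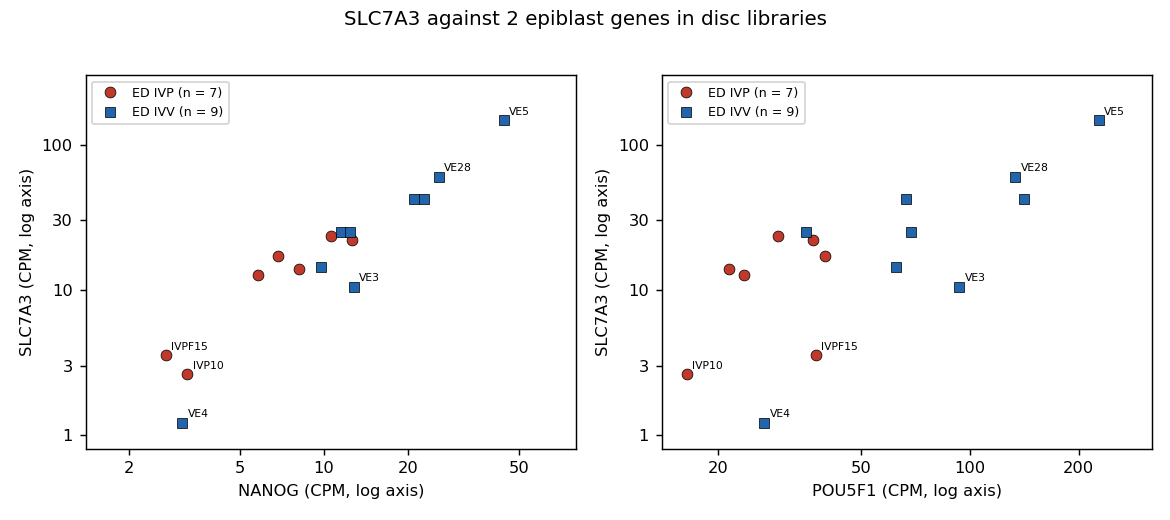
SLC7A3 against NANOG (left) and POU5F1 (right) in disc libraries, CPM on log axes, with 1 point per disc for 7 IVP and 9 IVV embryos. The NANOG points of both groups lie along a rising band from VE4 (1.21 CPM of SLC7A3) to VE5 (148 CPM), while against POU5F1 the IVP discs with 16.4 to 39.6 CPM scatter widely.

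Further members had fitted values of some size in the discs without a call. SLC38A1 was at 1.18 ± 0.467 CPM in IVP and 2.702 ± 1.58 CPM in IVV discs (-1.23 ± 0.38, adjusted p = 0.0539). SLC38A4, a gene of the same cluster in the genome and a placental carrier of neutral and cationic amino acids, held 0 to 19 counts in IVP and 1 to 107 in IVV discs (-2.12 ± 0.72, adjusted p = 0.0825). The glutamate transporter SLC1A6 had -1.38 ± 0.45 (adjusted p = 0.0677), the serotonin transporter SLC6A4 -1.25 ± 0.41 (adjusted p = 0.0680), SLC38A6 0.72 ± 0.24 (adjusted p = 0.0749) and the arginine carrier SLC7A2 0.85 ± 0.30 (adjusted p = 0.0963). SLC38A1, SLC38A4, SLC38A6, SLC1A6 and SLC7A2 were among the 10 members called with DESeq2, which called 1519 of all genes against 998 with edgeR. No SLC1, SLC36, SLC38 or SLC43 member was called in the discs in the edgeR fit reported here, but other edgeR fits called some, such as SLC38A1 with no filter on low counts and SLC1A6, SLC38A1 and SLC38A4 without VE4. SLC6A2 and SLC36A3, with counts in 7 and 8 of the 9 IVV discs and at most 1 count in any IVP disc, were under the filter there. Both were tested and called lower in IVP discs with no filter and in each of the 7 fits that left out 1 IVP disc, and in those fits they passed the filter through the IVV discs alone.

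Between IVP and IVV membranes, 1 of the 41 tested members differed. Of all 14718 genes tested, 3.81% differed, 2.29% with the higher and 1.52% with the lower level in IVP membranes, and the share among the members was 2.44%. The median log2 fold change was 0.14 over the tested members and 0.0038 over all genes, and 6 members (14.6%) had an unadjusted p under 0.05, as did 13.7% of all genes.

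The member that differed was SLC38A5, which carries glutamine, histidine and glycine with sodium. Its levels in IVP membranes were 4.33 CPM in IVPF9, 6.40 in IVP10, 8.96 in IVPF13, 10.1 in IVP14, 14.7 in IVP11 and 17.1 in IVPF14. In IVV membranes they were 1.26 CPM in VE24, 1.65 in VE19, 3.90 in VE26, 3.91 in VE5, 4.21 in VE28, 4.40 in VE3, 5.76 in VE4 and 7.91 in VE29. The groups overlapped between 4.33 and 7.91 CPM. The means were 10.3 ± 4.85 CPM (n = 6) and 4.12 ± 2.12 CPM (n = 8), and the log2 fold change was 1.32 ± 0.36 (adjusted p = 0.0337). SLC38A5 is X-linked in mammals. VE3 and VE5, whose XIST was as low as in IVP embryos, had 4.40 and 3.91 CPM, within the range of the other IVV membranes. VE5 was below all IVP membranes and VE3 below all but IVPF9, while with XIST as a covariate the log2 fold change was 0.81 (adjusted p = 0.904). The call was lost in 7 of 14 fits that left out 1 membrane, with an adjusted p of up to 0.139 (without IVP11). The other X-linked members, the creatine transporter SLC6A8 and SLC6A14, had log2 fold changes of -0.46 ± 0.27 and -0.20 ± 0.30 in the membranes (adjusted p = 0.522 and 0.941) and of -0.24 ± 0.28 and -0.77 ± 0.34 in the discs (adjusted p = 0.755 and 0.221). In discs SLC38A5 had 10.4 ± 3.96 CPM in IVP and 7.74 ± 4.12 CPM in IVV embryos (0.45 ± 0.34, adjusted p = 0.542), and the difference between the tissues was -1.30 ± 0.42 (adjusted p = 0.171).

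SLC7A2 had the next smallest p in the membranes, with 7.46 ± 3.45 CPM in IVP and 3.62 ± 1.84 CPM in IVV embryos (1.04 ± 0.32, adjusted p = 0.0666). It was past the threshold with DESeq2 (adjusted p = 0.0275). The taurine transporter SLC6A6 had 24.2 ± 9.54 CPM and 13.9 ± 4.38 CPM (0.78 ± 0.25, adjusted p = 0.0947), and SLC6A4 0.130 ± 0.0713 CPM and 0.326 ± 0.121 CPM (-1.31 ± 0.44, adjusted p = 0.104). None of the heavy and light chains passed the test in the membranes, where SLC3A2 had a log2 fold change of 0.13 ± 0.28, SLC3A1 0.06 ± 0.34, SLC7A5 0.14 ± 0.24, SLC7A7 0.02 ± 0.23, SLC7A8 0.41 ± 0.27 and SLC7A9 -0.13 ± 0.38. SLC7A4, which resembles the cationic carriers but has no known transport of its own, was well counted in both tissues, with 407 to 1215 CPM in IVP and 446 to 1139 CPM in IVV membranes (-0.13 ± 0.25, adjusted p = 0.971).

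**Figure D5:**
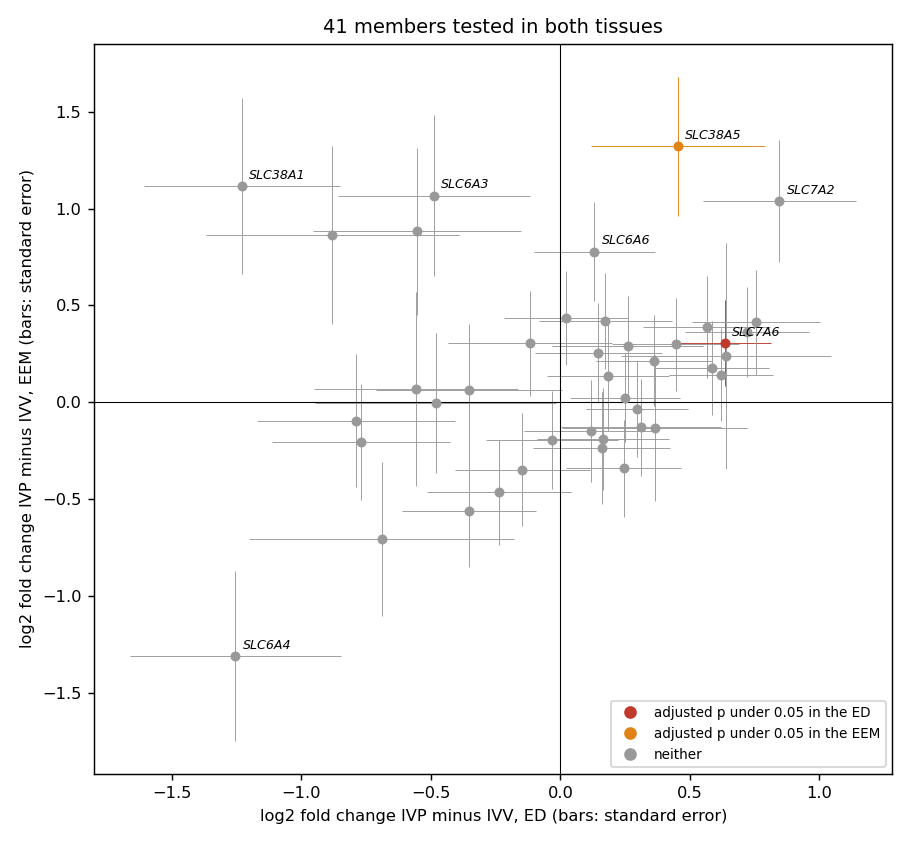
Log2 fold change between IVP and IVV embryos in the ED (horizontal) and in the EEM (vertical) for the 41 members tested in both tissues, with standard errors as bars and labels for members discussed in the text. Most points lie within 1 of 0 on both axes, SLC7A6 (red) and SLC38A5 (orange) passed the test in 1 tissue each, and most embryos contributed to both axes.

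One of the 54 members tested for an interaction of tissue and procedure passed it, SLC36A3, a little studied relative of the proton coupled carrier SLC36A1. Of all 16784 genes, 1.02% passed, 0.107% with a positive and 0.918% with a negative difference, where the difference is the log2 fold change of IVP against IVV in the ED minus that in the EEM. The median over members was -0.29 and that over all genes -0.04. SLC36A3 held at most 1 count in each IVP disc and each IVV membrane. In IVV discs it held 83 counts in VE5, 53 in VE28, 42 in VE6, 35 in VE26, 28 in VE24, 11 in VE19, 10 in VE3, 1 in VE4 and 0 in VE29. In IVP membranes it held 102 counts in IVP14, 51 in IVPF14, 1 in IVPF9 and 0 in IVP10, IVP11 and IVPF13. Against a floor of 3 counts per library, the mean of IVV discs was at least 8.56-fold above IVP discs and that of IVP membranes at least 8.17-fold above IVV membranes. The bound for the membranes rests on IVP14 and IVPF14.

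The interaction of SLC36A3 was -10.61 ± 1.90 (adjusted p = 0.0104), a fitted value that is no bound, since groups at the floor enter it. The gene passed the filter on low counts through IVV discs and the membranes of IVP14 and IVPF14, the only libraries with 10 or more of its counts. It was lost without IVP14 (adjusted p = 0.114) and in the fit without IVPF14, and without IVPF13 it was -11.86 ± 1.76 (adjusted p = 0.00384). The same membranes carried counts of SLC6A12, 16 in IVP14 and 19 in IVPF14 against at most 1 in all others (interaction -6.603 ± 1.602, adjusted p = 0.0575, and 0.0209 without IVPF13). Of the genes high in discs, NANOG was at 0.0543 and 0.0401 CPM, SLC7A3 at 0 and 2 counts, POU5F1 at 1.68 and 1.502 CPM and SLC38A1 at 0.362 and 0.461 CPM in the membranes of IVP14 and IVPF14. These POU5F1 levels lay within the range of all membranes, and the SLC38A1 level of IVPF14 was the highest of the 14 membranes. Their part in the result was not tested. SLC38A1 had an interaction of -2.17 ± 0.57 (adjusted p = 0.0713) and SLC38A4 of -4.54 ± 1.25 (adjusted p = 0.0899). Both passed the test with DESeq2, as did SLC6A6, and SLC36A3 did not.

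Other genes around amino acid supply were counted in lists written by hand, and their counts stand beside the shares of all genes called, 12.8% higher and 8.16% lower in the ED, 1.4% and 4.95% in IVP discs, and 2.29% and 1.52% in IVP membranes. Values for these lists come from the fits reported here, and no alternative is given for them. With XIST as a covariate, calls over all genes fell from 998 to 654 in discs (52 higher and 602 lower in IVP). In membranes they fell from 561 to 145 (54 higher and 91 lower). Of 15 tested amino acid transporters of other families, SLC15A3, a lysosomal carrier of peptides and histidine, and SLC25A12, the mitochondrial aspartate and glutamate carrier, were higher in the ED than in the EEM (log2 fold changes 2.89 ± 0.28 and 0.89 ± 0.21), and SLC25A12 was lower in IVP discs (-0.82 ± 0.22, adjusted p = 0.0231). In the membranes SLC17A7, a vesicular glutamate transporter, was higher in IVP (1.27 ± 0.36, adjusted p = 0.0438). Of 19 tested genes of the amino acid response, the program run by ATF4 when amino acids are short, 4 were lower in the ED than in the EEM, ATF4 (-0.46 ± 0.11), CEBPG, DDIT3 and PPP1R15A, and STC2 was higher (5.95 ± 0.55), 5 of 19 against 21% of all genes. Between procedures, the MTOR inhibitor DDIT4 was higher in IVP discs (1.55 ± 0.27, adjusted p = 0.000883) and IVP membranes (1.84 ± 0.36, adjusted p = 0.00300), ATF3 was lower in both (-1.33 ± 0.33 and -1.79 ± 0.27), and PPP1R15A was lower in IVP membranes (-1.26 ± 0.22).

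Of 28 tested genes of amino acid sensing at the lysosome, 4 were higher and 3 lower in the ED, with SESN3, a sestrin that restrains MTOR, at 2.38 ± 0.28 and the RAG GTPase RRAGB at 1.09 ± 0.19. These 7 of 28 are a share near the 21% of all genes. In discs 2 of the 28 passed the test, against 6.34% of all genes: RPTOR, a subunit of the MTOR complex, was higher in IVP (0.97 ± 0.22, adjusted p = 0.00793) and SESN3 lower (-1.50 ± 0.35, adjusted p = 0.0109), and no gene of this list passed the test in the membranes. For arginine and polyamine metabolism, which uses what the cationic carriers bring in, 4 of 18 genes were higher in the ED, AGMAT, AZIN2, GAMT and GATM, and SRM and OAT were lower, against 12.8% and 8.16% of all genes. The nitric oxide synthase NOS2 was higher in IVP discs (2.40 ± 0.58, adjusted p = 0.0130) and NOS3 in IVP membranes (3.99 ± 0.57, adjusted p = 1.00e-04), where the polyamine acetylase SAT1 was lower (-0.93 ± 0.25, adjusted p = 0.0340).

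Of 11 tested genes of serine and glycine synthesis, 2 were higher and 1 lower in IVP discs, 1 was higher in IVP membranes, and 2 were higher and 1 lower in the ED. The first enzymes of serine synthesis, PHGDH and PSAT1, were both higher in IVP discs, by 1.08 ± 0.24 and 1.07 ± 0.26 on the log2 scale (adjusted p = 0.00705 and 0.0134), and PHGDH in IVP membranes also (0.97 ± 0.25, adjusted p = 0.0238), while PSAT1 there had 0.74 ± 0.28 (adjusted p = 0.174). GLDC, which breaks down glycine, was higher in the ED than in the EEM (2.41 ± 0.37) and lower in IVP than in IVV discs (-1.45 ± 0.40, adjusted p = 0.0308). Of the folate enzymes that use serine and glycine, SHMT1 was higher in the ED (0.51 ± 0.15, adjusted p = 0.0217) and MTHFD2 lower (-0.52 ± 0.13, adjusted p = 0.00831). Among 16 tested genes of glutamine and glutamate metabolism, none differed between procedures in either tissue, and GLUD1 and ALDH18A1 were higher in the ED.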

How the data were processed

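Libraries were non-stranded poly(A) RNA, sequenced as paired reads of 100 bases. The authors filtered reads with SOAPnuke, used STAR 2.7.0b for alignment to the ARS-UCD1.3 assembly, and summed reads by gene in featureCounts (Subread 2.0.3); the submitters' processing notes also name FastQC 0.11.9 and Trimmomatic. The deposited values are raw counts per gene and library, without normalization, and all 30 columns were used. Small even counts were more frequent than small odd ones (19289 entries of 2 and 15257 of 1), which is what counting each mate would give, so halved counts were an alternative. Symbols for 31630 of 35092 Entrez IDs, with 99.5% of the counts, and the neighbours and overlaps of genes were read from RefSeq for ARS-UCD2.0, another assembly, so no positions are given.

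Counts were analysed with edgeR 4.0.16 in R 4.3.3, with TMM factors (0.802 to 1.22), filterByExpr with a minimum of 10 counts, and quasi-likelihood F tests, adjusted after Benjamini and Hochberg over all genes tested, with a threshold of 0.05. Standard errors were derived from the log2 fold change and its F statistic. IVP and IVV were compared within each tissue with 1 surrogate variable from svaseq (sva 3.50.0), since the number the study used is not named. ED and EEM, and the interaction, were compared in the 26 libraries of 13 embryos with embryo as a block, and 12 of the 13 discs correlated best with the membrane of their own embryo. Embryos are the replicates. Relations between genes over discs were tested by exact permutation. Alternatives were DESeq2 1.42.0, 0 or 2 surrogate variables, DESeq2 size factors in edgeR, no filter, halved counts, the letter that ends the sample titles, XIST as a covariate, no replicate block, each procedure alone, and each embryo left out in turn. Scripts were tested on simulated data.

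The members and lists were chosen with earlier results of these data known. The members named were SLC7A3, those past the threshold between procedures or in the interaction, in each direction between ED and EEM the 6 of smallest p, and the heavy chains with their light chains, with values in every library for SLC7A3, SLC6A13, SLC38A5 and SLC36A3 and ranges, means or fold changes for the others; of other lists, at most 6 genes per list, those with the smallest p, were named, and the other members named were chosen after their values were seen. 1 member counted among those tested is not reported here. Levels were not compared between genes, since no transcript lengths were at hand, and no sequences were used.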

Additional observations from a re-analysis of the deposited data

Results flagged for a closer look

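The interaction of tissue and procedure for SLC36A3 is listed because the test of the difference itself passed the threshold, with the effect of IVP in the ED minus that in the EEM at -10.61 on the log2 scale. Counts lay in 8 of 9 IVV discs and, above 1 count, in the membranes of IVP14 and IVPF14. The gene passed the filter on low counts through IVV discs and these 2 membranes alone, and the fitted value is no bound.

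Among 76 groups of libraries of the 19 members followed in every library, 4 had a lowest or highest library farther from the others than Dixon's 95% limit, and chance gives about 1 in 20. SLC7A3 was at 0.0401 CPM in the membrane of IVPF14 and at 0 in the other 5 IVP membranes, a difference of 2 counts. In the disc of IVP10, SLC38A5 was at 2.87 CPM with the next IVP disc at 7.91 CPM, and SLC1A4 was at 1.70 CPM with the next at 4.03 CPM. In the membrane of VE19, SLC1A4 was at 1.90 CPM, with the next IVV membrane at 3.75 CPM.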

How the results depend on the processing

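Between IVP and IVV discs, 2 members were called. The count was 1 with the title letter as a term (699 of 15733 genes in all), 10 with DESeq2 (1519 of 15733), 6 with no filter on low counts (1846 of 23686) and 4 with halved counts (852 of 14445). It ran from 1 to 7 when 1 embryo was left out, beside 639 to 1160 of all genes: 1 without VE5 or VE6, 4 without IVPF10, IVPF14, VE3 or VE26, 5 without IVPF15, 6 without IVP10, IVP14 or VE4, and 7 without IVP11. SLC6A13 was called in 8 of 8 alternatives and 16 of 16 such fits, and SLC7A6 in 4 of 8 and 9 of 16. Between membranes, 1 member was called, beside 561 of 14718 genes. The count was 0 with XIST as a covariate (145 of 14718 genes, with 5 members at an unadjusted p under 0.05). It was 2 with DESeq2 (802 of 14718) and 4 with no filter (1211 of 22736). When 1 embryo was left out it was 0 to 2, beside 426 to 729 of all genes: 0 without IVP11, IVP14, VE5, VE24 or VE26 (6 to 9 members at an unadjusted p under 0.05) and 2 without IVP10, VE4, VE19 or VE29. SLC38A5 was called in 6 of 8 alternatives, with log2 fold changes of 0.81 to 1.40.

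Between ED and EEM, 10 members were called with the replicate block (3124 of 14898 genes) and 7 with no replicate block (1553 of 14898), all 7 of them among the 10. IVP embryos alone gave 4 (488 of 14863 genes) and IVV embryos alone 13 (3222 of 15138). Leaving out 1 embryo gave 10 to 12, beside 2414 to 3722 of all genes. SLC6A20 had a log2 fold change of 0.15 in IVP embryos alone and SLC38A11 of 0.0098 in IVV embryos alone, on the other side of 0 from the values reported, and the cause was not tested. The 10 members called kept their sign under each alternative in which they could be fitted, but in IVP embryos alone SLC6A6 was at 0.01, SLC6A3 at 0.80 and SLC7A1 at 0.28, none past the threshold. The interaction was called for 1 member (172 of 16784 genes). It was called for 3 with no replicate block (229 of 16784), 3 with DESeq2 (435 of 16784) and 3 with no filter (356 of 24105). When 1 embryo was left out it was called for 0 to 2, beside 101 to 211 of all genes, 0 without IVP14 or IVPF14 (14 and 13 members at an unadjusted p under 0.05) and 2 without IVPF13 or VE19. DESeq2 left out SLC36A3. Members with few counts, such as SLC6A2, SLC6A12 and SLC7A14, entered some tests only with no filter. XIST as a covariate stands for sex only roughly, and with low XIST in all IVP embryos its separation from procedure rests on VE3 and VE5.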

Other observations

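The embryos that held the highest and lowest values of the members were counted. Among the 39 members with at least 10 counts in each of the 7 IVP discs, IVP10 held the lowest level for 23 and IVP14 the highest for 13. Among the 44 such members in the 9 IVV discs, VE5 held the highest level for 13 and VE6 for 11, while VE19 held the lowest for 9. In IVP membranes IVP14 held the highest level for 16 of 35 members and in IVV membranes VE29 for 14 of 37. The lowest levels were spread more widely, over all 9 IVV discs and all 6 IVP and 8 IVV membranes, with at most 10 members in any of these libraries. Scaling factors of these discs were 0.982 for IVP10, 1.18 for IVP14, 1.21 for VE5 and 1.22 for VE6. Members share these libraries, so the counts are a description of the libraries and carry no test.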
